A study of Homo sapiens with 8 samples.

Results

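The genes described here are 10 interferon-stimulated genes (ISGs) whose proteins act directly on viruses, on viral replication or on the infected cell. They are MX1, MX2, RSAD2, CMPK2, BST2, IFI6, IFI35, XAF1, SAMD9 and SAMD9L, taken by name from the 60664 genes of the deposited table. THP-1 is a line of human leukemia cells of the monocytic lineage. DAC (decitabine), a cytidine analogue, is built into DNA and lowers its methylation. RNA was sequenced from 4 groups of 2 biological replicates: parental THP-1 cells given the vehicle DMSO (parental DMSO) or DAC (parental DAC), and decitabine-resistant THP-1 cells given DMSO (resistant DMSO) or DAC (resistant DAC). The DAC dose was 1 µM, treatment lasted 6 days, and cells given DMSO alone are called untreated. The DAC-resistant cells were 1 line, selected from the parental line by long exposure to DAC, so differences between the lines are differences between these 2 cell populations. The labels do not say whether replicates were separate cultures, and the p-values measure the spread between these libraries.

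Type I interferon (IFN) is made after a cell senses foreign or unusual nucleic acid. It binds its receptor on the same or on neighbouring cells, and a complex of signal transducers and IRF9 then enters the nucleus and binds the interferon-stimulated response element (ISRE) before ISGs. Agents that lower DNA methylation can raise double-stranded RNA from repeats and so start this response in cells with no virus, and the comparisons address whether that response arises in leukemia cells that are sensitive or resistant to DAC.

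The 8 libraries held 28717825 to 33416752 reads on genes, and each of the 10 genes had between 64 and 14775 reads in every library. Of the 9 markers of THP-1 monocytic cells checked, 9 were at 1 FPKM or more in both parental groups and 8 in both DAC-resistant groups, with sums of 333 to 345 FPKM in parental DMSO, 407 to 416 in parental DAC, 230 to 239 in resistant DMSO and 228 to 236 in resistant DAC. FPKM is a read count scaled by exon length and by the size of the library. With DAC in parental cells the mean of CD14 went from 1.52 to 19.9 FPKM and that of LYZ from 12.0 to 47.8. Those of CD33 (9.83 to 7.86) and CD4 (157 to 123) went the other way. The sum of 4 T cell markers was 0.0337 to 0.129 FPKM in parental DMSO and 3.59 to 3.79 FPKM in parental DAC, mostly TRAC, while CD3D and CD2 were listed at 0 outside parental DAC. The 4 fibroblast markers summed to 0.644 to 0.693 FPKM in parental DMSO and to between 8.90 and 10.1 FPKM in the other 3 groups. Sums of plasmacytoid dendritic cell markers were 12.8 to 15.6, 15.3 to 16.1, 7.09 to 7.45 and 7.09 to 8.04 FPKM in the same order of groups, with CLEC4C listed at 0 in all but parental DAC. B and plasma cell markers summed to between 5.35 and 8.56 FPKM, and epithelial markers to at most 0.528 FPKM. The part of these genes in the results was not tested, and in bulk RNA fewer cells of a type and less RNA per cell cannot be told apart.

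The stretches before the start sites of 5 of these genes are shown because they hold, or lack, the letters that IFN-activated factors bind, and because the DNA before most of them is poor in CpG, the site of DNA methylation. They are RefSeq promoter windows (GRCh38.p14), printed 5′ to 3′ on the gene's strand as far as no GENCODE exon of that gene covers them, with ISRE letters (GAAA, any 2 bases, GAAA) and the letters of the gamma-activated site (GAS: TTC, any 3 bases, GAA), on either strand, in capitals. The BST2 stretch also holds exons of BISPR, a noncoding gene on the other strand.
BST2, chr19:17405631-17405880, minus strand: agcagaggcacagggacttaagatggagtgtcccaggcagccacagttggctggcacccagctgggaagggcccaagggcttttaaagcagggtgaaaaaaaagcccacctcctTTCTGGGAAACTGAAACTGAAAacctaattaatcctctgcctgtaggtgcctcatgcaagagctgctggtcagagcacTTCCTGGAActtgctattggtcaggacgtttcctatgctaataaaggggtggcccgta
IFI6, chr1:27672213-27672442, minus strand: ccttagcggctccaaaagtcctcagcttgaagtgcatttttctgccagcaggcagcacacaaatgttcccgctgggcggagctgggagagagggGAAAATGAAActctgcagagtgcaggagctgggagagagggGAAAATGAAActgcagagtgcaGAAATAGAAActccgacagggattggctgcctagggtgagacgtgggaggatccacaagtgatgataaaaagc
SAMD9, chr7:93118024-93118229, minus strand: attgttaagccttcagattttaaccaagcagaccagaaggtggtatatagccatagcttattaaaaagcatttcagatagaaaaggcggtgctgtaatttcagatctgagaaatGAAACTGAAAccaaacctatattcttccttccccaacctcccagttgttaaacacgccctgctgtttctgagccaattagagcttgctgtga
SAMD9L, chr7:93148386-93148635, minus strand: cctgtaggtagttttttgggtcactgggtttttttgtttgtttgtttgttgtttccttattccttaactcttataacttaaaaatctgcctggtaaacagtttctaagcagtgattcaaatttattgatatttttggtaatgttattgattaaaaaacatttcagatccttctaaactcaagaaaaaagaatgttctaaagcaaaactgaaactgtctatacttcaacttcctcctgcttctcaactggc
MX1, chr21:41431800-41432030, plus strand: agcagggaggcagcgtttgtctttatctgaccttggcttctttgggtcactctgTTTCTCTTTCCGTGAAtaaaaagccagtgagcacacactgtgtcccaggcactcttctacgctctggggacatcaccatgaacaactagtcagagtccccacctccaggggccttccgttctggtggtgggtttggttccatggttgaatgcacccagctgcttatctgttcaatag

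BST2 held 2 ISRE matches that overlap each other and 2 GAS matches, 1 of which overlaps an ISRE match, and IFI6 held 3 ISRE matches. SAMD9 held 1 ISRE match, and SAMD9L, its neighbour, held neither motif. The MX1 stretch held 1 ISRE match on the opposite strand that shares letters with a GAS match. This stretch lies inside the gene, before the most downstream of the MX1 start sites with a window. Which start site these cells use was not measured. Of the 10 genes, 9 had RefSeq windows (15 windows of 300 bases, from 250 before a start site to 50 after it), and MX2 had none. ISRE letters were in windows of 5 of the 9 genes (MX1, RSAD2, BST2, IFI6 and SAMD9), against 3.57% of all 35116 promoter windows. In RSAD2 the match was TTTCAGTTTC at chr2:6877632-6877641, and MX1 had another match, GAAACCGAAA, at chr21:41420569-41420578, just after a start site further upstream. GAS letters were in windows of 3 genes (MX1, BST2 and IFI35), against 7.66% of all windows. Genes with several windows have more chances of a match, and a match is a description of letters, not a bound site.

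CpG dinucleotides were few in most of these windows. The windows of SAMD9L, BST2 and SAMD9 held 0, 2 and 4 CpG, those of IFI35 and IFI6 held 8 and 9, and those of XAF1 held 3 and 7. The median over all 35116 windows was 14, with quartiles of 4 and 28, and 10 of the 15 windows were below the median. RSAD2 and CMPK2, which start beside each other, were richer, with 45 CpG in 1 RSAD2 window and 41 and 38 in 2 CMPK2 windows, while their remaining windows held 4 and 2. The 3 windows of MX1 held 20, 30 and 6 CpG, and the printed MX1 stretch is from the last of them. Methylation itself was not measured in these data.

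In parental cells DAC raised the mRNA of 9 of the genes by the test, and MX1 was higher too, as a description. The fold change of the mean FPKM ran from 2.70 for BST2 to 79.9 for MX1, and in every gene both DAC libraries were above both DMSO libraries, as in 44.9% of all genes tested. A gene was called when its unadjusted limma p was 0.01 or less and its log2 fold change was 1 or more in size, on log2(FPKM + 1) over 14899 genes, and "rose" and "fell" are used at a Benjamini-Hochberg adjusted p under 0.05. MX1 passed the filter on low values through parental DAC alone and so had to differ there, and no test of that group against another is given for it. The 9 others reached 1 FPKM in at least 3 groups, and by the rule 9 of 9 were called higher, against 6.66% of all genes tested. The median log2 fold change of the 9 genes was 2.14, beside 0.06 over all genes tested. The added 1 FPKM understates the change of low genes, MX1 most of all.

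**Figure D1:**
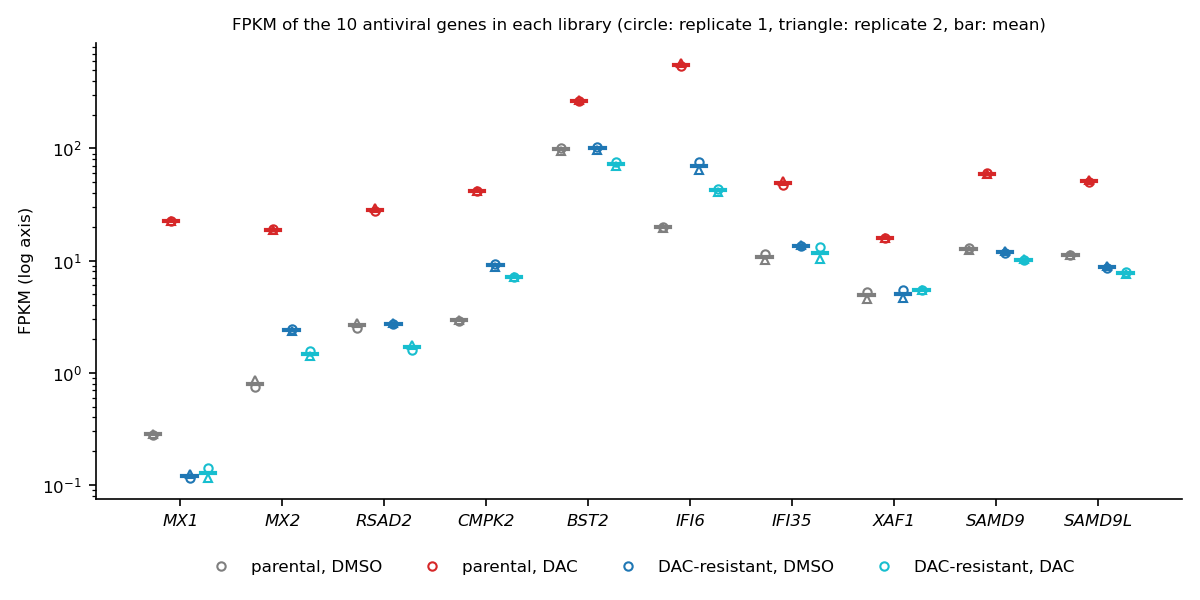
FPKM (log axis) of the 10 genes in each of the 8 libraries, by group. In each gene the 2 parental libraries with DAC stand above the 6 others.

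MX1 and MX2 are dynamin-like GTPases that assemble around viral nucleoprotein complexes and block them, MX1 mainly against influenza and related RNA viruses and MX2 against HIV and herpesviruses. MX1 (ENSG00000157601, chr21:41420020-41470071, plus strand) was at 0.279 and 0.286 FPKM in parental DMSO, 22.5 and 22.6 in parental DAC, 0.115 and 0.126 in resistant DMSO, and 0.141 and 0.116 in resistant DAC. The reads behind these levels were 159 and 156, 11131 and 11171, 65 and 68, and 81 and 64. MX1 was the lowest of the 10 genes in every group but parental DAC, where 2 others were lower. The difference between the parental groups was 4.20 on the log2(FPKM + 1) scale, and limma voom on the recovered reads, with no added FPKM, gave 6.31. In DAC-resistant cells the DMSO and DAC libraries of MX1 overlapped, with a log2 fold change of 0.01 (95% interval -0.16 to 0.18, adjusted p = 0.96).

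The MX1 level in untreated cells was lower in the DAC-resistant line, at 0.425 of the parental level, and both DAC-resistant libraries were below both parental ones. On the log2(FPKM + 1) scale this was -0.20 (95% interval -0.37 to -0.02, adjusted p = 0.055), which misses the threshold. With a pseudocount of 0.1 it did pass the adjusted threshold (-0.80, adjusted p = 0.0098), as it did after rescaling to TPM (-0.45, adjusted p = 0.026), with upper-quartile scaling (-0.21, adjusted p = 0.037) and with a filter on a mean of 5 FPKM (adjusted p = 0.048). Voom on the recovered reads gave -1.23 (unadjusted p = 0.00012) and called it.

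MX2 (ENSG00000183486, chr21:41361999-41409393, plus strand) lies 10626 bases before MX1 on the same strand. It was at 0.741 and 0.854 FPKM in parental DMSO, 19.1 and 18.6 in parental DAC, 2.47 and 2.37 in resistant DMSO, and 1.55 and 1.41 in resistant DAC, so no 2 groups overlapped. DAC raised it 23.7-fold in parental cells (log2 fold change 3.47, adjusted p = 1.6e-07). In DMSO the DAC-resistant level was 3.04 times the parental one. That difference was 0.93 on the log2(FPKM + 1) scale (95% interval 0.77 to 1.08, adjusted p = 4.3e-05), just short of the fold needed for a call, and it passed with a pseudocount of 0.1 (1.49), after rescaling to TPM (1.38) and with voom (1.60). In DAC-resistant cells MX2 fell with DAC, by 0.46 (adjusted p = 0.0089). In untreated DAC-resistant cells both libraries of MX1 were thus below, and both of MX2 above, the parental libraries.

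RSAD2 (viperin) is a radical SAM enzyme that turns CTP into a nucleotide that ends viral RNA chains, and CMPK2 is a mitochondrial nucleotide kinase that supplies such pyrimidine nucleotides. Their genes lie head to head on chromosome 2, RSAD2 on the plus strand (ENSG00000134321, chr2:6865557-6898239) and CMPK2 on the minus strand (ENSG00000134326, chr2:6840570-6866635), and they overlap by 1079 bases. The sources used here do not say whether the counting used the strand, and reads in this overlap are uncertain. RSAD2 was at 2.53 and 2.80 FPKM in parental DMSO, 27.6 and 29.3 in parental DAC, 2.73 and 2.77 in resistant DMSO, and 1.61 and 1.76 in resistant DAC. It rose 10.7-fold with DAC in parental cells (log2 fold change 3.01, adjusted p = 2.4e-07). The untreated lines overlapped (0.03, 95% interval -0.12 to 0.18, adjusted p = 0.68), and in DAC-resistant cells RSAD2 fell by 0.48 with DAC (adjusted p = 0.0074).

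CMPK2 was at 2.91 and 2.97 FPKM in parental DMSO, 42.0 and 42.0 in parental DAC, 9.29 and 8.81 in resistant DMSO, and 7.17 and 7.17 in resistant DAC. It rose 14.3-fold in parental cells (log2 fold change 3.45, adjusted p = 3.4e-08), and unlike RSAD2 it was also called higher in untreated DAC-resistant cells, at 3.08 times the parental level (1.35, SE 0.039, adjusted p = 1.4e-06). With DAC it fell by 0.30 in DAC-resistant cells (adjusted p = 0.0074). CMPK2 lay just above RSAD2 in untreated parental cells and well above it in untreated DAC-resistant cells.

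BST2 (tetherin) is a membrane protein that holds budding enveloped viruses on the cell surface. BST2 (ENSG00000130303, chr19:17402939-17405630, minus strand) was at 101.2 and 95.5 FPKM in parental DMSO, 263 and 268 in parental DAC, 103.4 and 97.4 in resistant DMSO, and 75.8 and 70.3 in resistant DAC. It had the highest untreated level of the 10 genes and the smallest fold rise, 2.70 (log2 fold change 1.42, adjusted p = 1.9e-06). The untreated lines overlapped (0.03, 95% interval -0.09 to 0.15, adjusted p = 0.63). With DAC, BST2 in DAC-resistant cells fell by 0.45 (adjusted p = 0.0038), to below its untreated level in either line.

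IFI6 is a small membrane protein of the endoplasmic reticulum and mitochondria that restrains flavivirus replication and apoptosis. IFI6 (ENSG00000126709, chr1:27666064-27672212, minus strand) was at 20.1 and 19.6 FPKM in parental DMSO, 542 and 574 in parental DAC, 74.9 and 64.8 in resistant DMSO, and 43.4 and 41.0 in resistant DAC. It rose 28.1-fold in parental cells and became the highest of the 10 genes (log2 fold change 4.75, SE 0.069, adjusted p = 8.5e-08). In untreated DAC-resistant cells it was called higher, at 3.52 times the parental level (1.76, adjusted p = 4.2e-06). DAC lowered it in DAC-resistant cells by 0.71 (adjusted p = 0.0026), the largest fall of the 10 genes in that comparison.

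IFI35 is a leucine zipper protein that forms a complex with NMI and modulates innate signalling, and XAF1 binds the apoptosis inhibitor XIAP and favours apoptosis. IFI35 (ENSG00000068079, chr17:43006740-43014456, plus strand) was at 11.4 and 10.1 FPKM in parental DMSO, 47.3 and 50.9 in parental DAC, 13.5 and 13.7 in resistant DMSO, and 13.1 and 10.4 in resistant DAC. Its rise in parental cells was 4.57-fold (log2 fold change 2.09, adjusted p = 1e-05). In untreated DAC-resistant cells it was 1.27 times the parental level (0.32, adjusted p = 0.04), and with DAC there its libraries were lower but did not pass the test (-0.21, 95% interval -0.46 to 0.05, adjusted p = 0.27), with -0.36 without resistant DAC replicate 1 and -0.05 without resistant DAC replicate 2.

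XAF1 (ENSG00000132530, chr17:6755447-6775647, plus strand) was at 5.22 and 4.56 FPKM in parental DMSO, 15.8 and 15.8 in parental DAC, 5.43 and 4.63 in resistant DMSO, and 5.42 and 5.51 in resistant DAC. It was raised 3.23-fold in parental cells (log2 fold change 1.51, adjusted p = 1.2e-05), and its 3 other groups lay between 4.56 and 5.51 FPKM. Neither the untreated lines (0.03, 95% interval -0.16 to 0.22, adjusted p = 0.75) nor DAC in DAC-resistant cells (0.10, 95% interval -0.09 to 0.29, adjusted p = 0.47) passed the test. XIAP was at 7.11, 8.70, 7.88 and 7.21 FPKM (group means in the same order), and NMI was at 21.3, 26.3, 11.6 and 16.8 FPKM. NMI, unlike IFI35, was lower in untreated DAC-resistant cells (-0.83, adjusted p = 9.9e-05) and rose there with DAC (0.51, adjusted p = 0.0089).

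SAMD9 and SAMD9L are large paralogous cytoplasmic proteins that restrict poxviruses and slow translation and growth, and inherited activating changes in either cause bone marrow failure with a risk of myeloid leukemia. They lie 12032 bases apart on the minus strand of chromosome 7. SAMD9 (ENSG00000205413, chr7:93099513-93118023) was at 13.1 and 12.5 FPKM in parental DMSO, 60.9 and 58.7 in parental DAC, 11.7 and 12.1 in resistant DMSO, and 10.1 and 10.3 in resistant DAC. SAMD9L (ENSG00000177409, chr7:93130056-93148385) was at 11.1 and 11.3 FPKM, 50.7 and 52.2, 8.62 and 9.01, and 7.91 and 7.54 in the same order. The pair rose by nearly the same factor in parental cells, 4.68-fold and 4.58-fold (log2 fold changes 2.14 and 2.10, adjusted p = 1.4e-07 and 1.6e-07). Their promoter stretches differ in ISRE letters, as shown above.

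In untreated DAC-resistant cells SAMD9L was lower than in parental cells, by 0.32 on the log2 scale (adjusted p = 0.00058), and it passed in every alternative. The lower SAMD9 level did not pass (-0.09, adjusted p = 0.079), except under upper-quartile scaling (-0.23, adjusted p = 0.0031) and quantile normalization (-0.18, adjusted p = 0.011). With DAC both fell in DAC-resistant cells, SAMD9 by 0.21 (adjusted p = 0.02) and SAMD9L by 0.17 (adjusted p = 0.042).

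Levels can be compared between genes here because FPKM is divided by exon length. That length is the union of all annotated exons, 17984 bases for MX1 and 14562 for MX2 beside 936 for IFI6. A gene with many rarely used exons is listed lower per length, and exon use was not measured here. In untreated parental cells the order was BST2, IFI6, SAMD9, SAMD9L, IFI35, XAF1, CMPK2, RSAD2, MX2 and MX1, in which only SAMD9L and IFI35 overlapped. In parental cells with DAC it was IFI6, BST2, SAMD9, SAMD9L, IFI35, CMPK2, RSAD2, MX1, MX2 and XAF1, with the same overlap. In untreated DAC-resistant cells it was BST2, IFI6, IFI35, SAMD9, CMPK2, SAMD9L, XAF1, RSAD2, MX2 and MX1, in which CMPK2 and SAMD9L overlapped. With DAC the order in DAC-resistant cells was BST2, IFI6, IFI35, SAMD9, SAMD9L, CMPK2, XAF1, RSAD2, MX2 and MX1, with no overlap between neighbours.

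DAC in DAC-resistant cells called 0 of the 10 genes higher and 0 lower, against 0.114% and 0.121% of all genes tested. At an unadjusted p under 0.05, 7 genes were lower and 0 higher, against 12.6% and 14.4% of all genes, and voom also called 0, against 0.249% higher and 0.155% lower. At an adjusted p under 0.05, 7 of the 10 genes fell (MX2, RSAD2, CMPK2, BST2, IFI6, SAMD9 and SAMD9L), against 5.35% of all genes tested, by 0.17 to 0.71 on the log2 scale. These falls rest on the spread shared over all 8 libraries. With the 4 DAC-resistant libraries alone, 1.34% of all genes fell and 0 of these 7 passed, at adjusted p of 0.051 to 0.15. Leaving out 1 library left 3 to 6 of them, with 4 (RSAD2, CMPK2, BST2 and IFI6) without resistant DMSO replicate 1 and 3 (RSAD2, BST2 and IFI6) without resistant DAC replicate 2, and SAMD9L passed in none of these fits. In each of these fits a smaller share of all genes fell too. Both DAC libraries were below both DMSO libraries in 8 genes, against 26.4% of all genes, and MX1 and XAF1 overlapped. The median of the 10 genes was -0.25, beside 0.01 over all genes.

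The untreated lines did not differ in one direction over these genes. DAC-resistant cells had 2 genes called higher (IFI6 and CMPK2), against 4.45% of all genes tested, and 0 called lower, against 4.28%. At an adjusted p under 0.05, 4 genes were higher (MX2, CMPK2, IFI6 and IFI35), against 31.3% of all genes, and SAMD9L was lower, against 26.2%. IFI35 no longer passed this adjusted threshold under upper-quartile scaling (0.18, adjusted p = 0.2), quantile normalization (0.23, adjusted p = 0.1) and no filter (adjusted p = 0.12). Leaving out 1 library gave log2 fold changes of 0.23 to 0.40 for IFI35. The 2 lines did not overlap, with DAC-resistant cells above, in 4 genes and with DAC-resistant cells below in 3, against 41.7% and 36.9% of all genes. The median of the 10 genes was 0.03, beside 0.02 over all genes. With voom 4 genes were called, MX2 higher and MX1 lower in addition, against 7.42% of all genes called higher and 8.52% lower.

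**Figure D2:**
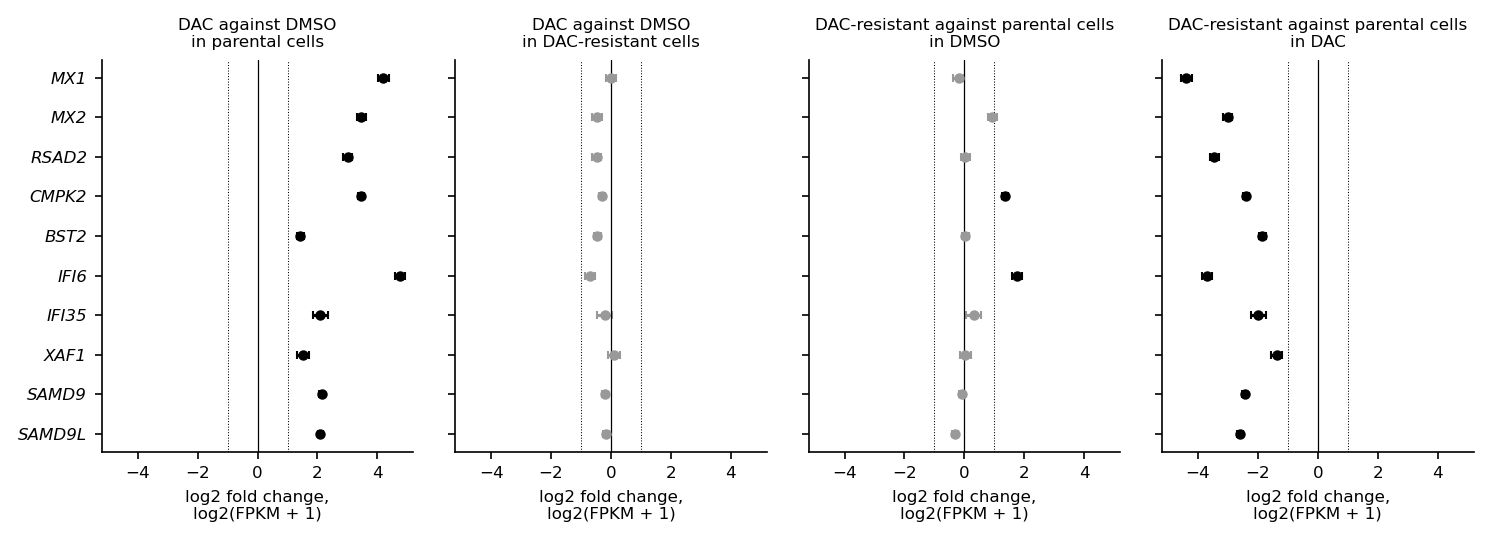
Log2 fold changes on the log2(FPKM + 1) scale of the 10 genes, with 95% intervals from limma. The comparisons are DAC in parental cells, DAC in DAC-resistant cells, the untreated lines and the lines with DAC. All 10 lie above 1 in parental cells, and with DAC all 10 are lower in the DAC-resistant line. MX1 passed the filter through parental DAC alone, so its intervals in both of these comparisons are no test. IFI6 and CMPK2 lie above 1 between the untreated lines.

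With DAC present, DAC-resistant cells had less mRNA of all 10 genes than parental cells, and 9 of the 9 genes other than MX1, whose difference was fixed by the filter, were called lower, against 9.17% of all genes tested. The parental level was 2.89 times (XAF1) to 175 times (MX1) the DAC-resistant one. The DAC effect itself differed between the lines for the same 9 of 9 genes, lower in DAC-resistant cells, against 7.16% of all genes. The median difference of the 9 was -2.35, beside -0.05 over all genes. These comparisons share libraries with those above, so their values stand side by side and are not independent of them.

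Untreated DAC-resistant cells held a part of the level that parental cells reached with DAC, and that part differed by gene. It was 0.532% for MX1, 9.66% for RSAD2, 12.5% for IFI6, 12.8% for MX2 and 37.8% for BST2. For BST2, XAF1 and RSAD2 the untreated parental cells held 37.1%, 31.0% and 9.36% of the same level, close to the DAC-resistant ones. For IFI6, MX2 and CMPK2 they held 3.56%, 4.23% and 7.01%, well below the 12.5%, 12.8% and 21.6% of DAC-resistant cells.

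**Figure D3:**
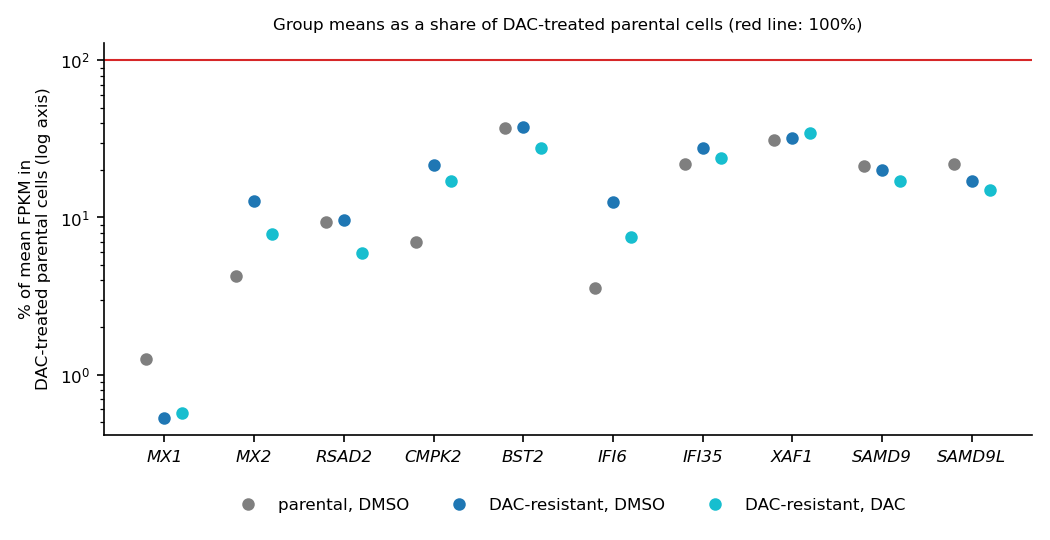
Level of each gene in the other 3 groups as a percentage of its mean level in parental cells with DAC. MX1 stays under 2% in all 3 groups, and IFI6, MX2 and CMPK2 are higher in the untreated DAC-resistant line than in the untreated parental line.

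Other ISGs with antiviral roles were counted from a list of 50 genes, all of which passed the filter, GBP1 through parental DAC alone. In parental cells DAC called 37 of the 49 others higher, against 6.66% of all genes tested, and their median was 2.05. At an adjusted p under 0.05, 48 of these rose and 0 fell, against 33.6% and 24.1% of all genes. For DAC in DAC-resistant cells 0 were called, against 0.114% of all genes higher and 0.121% lower. At an adjusted p under 0.05, 27 fell and 2 rose there, against 5.35% and 5.88% of all genes, with a median of -0.24. Between the untreated lines 19 of 50 were called higher in DAC-resistant cells, against 4.45% of all genes, and 0 lower, against 4.28%, with a median of 0.56, beside 0.03 for the 10 genes described here. The difference between these 2 lists was not tested.

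Of 21 interferon genes listed, 14 had no read in any library, and IFNB1, which codes for interferon beta, was the 1 that passed the filter. It passed through the DAC-resistant libraries alone, so no test between the lines is given. It had 0 and 1 reads in parental DMSO, 7 and 12 in parental DAC, 46 and 51 in resistant DMSO, and 51 and 60 in resistant DAC. DAC in DAC-resistant cells did not pass for IFNB1 (log2 fold change 0.11, adjusted p = 0.63). IFNL1 had 0 and 0, 4 and 8, 8 and 5, and 0 and 1 reads in the same order.

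Of 12 receptors and signal transducers of the pathway, IRF9, the DNA-binding part of the ISG activator, passed the filter through parental DAC alone (0.657, 3.11, 0.510 and 0.488 FPKM in the same order of groups). Of the 11 others DAC called 3 higher in parental cells, against 6.66% of all genes tested. At an adjusted p under 0.05, 8 of the 11 rose and 1 fell, against 33.6% and 24.1% of all genes. In DAC-resistant cells 0 of the 12 were called, against 0.114% of all genes higher and 0.121% lower. At an adjusted p under 0.05, 2 rose and 3 fell there, against 5.88% and 5.35% of all genes. Among the 3 was IRF7, which drives interferon genes, with 3.59, 51.5, 8.42 and 5.06 FPKM in the same order of groups (log2 fold change 3.52 in parental cells, adjusted p = 1.4e-07). IRF7 was the 1 of the 12 called higher in untreated DAC-resistant cells, against 4.45% of all genes (1.04, adjusted p = 2.1e-05), and it fell there with DAC by 0.64 (adjusted p = 0.0026). Between the untreated lines 3 of the 12 were higher in DAC-resistant cells and 5 lower at an adjusted p under 0.05. The shares of all genes were 31.3% and 26.2%. Of 5 negative regulators and partners, the noncoding RNA NRIR passed the filter through parental DAC alone. Of the 4 others DAC called 1 higher in parental cells, against 6.66% of all genes. It was SOCS3, a feedback inhibitor (1.33, adjusted p = 0.00021). In DAC-resistant cells 0 were called, against 0.114% of all genes higher and 0.121% lower.

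The nearest gene on each side of the members was looked up in the RefSeq table, and 6 of these neighbours that are not members passed the filter. NRIR, a noncoding RNA that restrains ISGs and lies 88 bases from CMPK2, had 59 and 43 reads in parental DMSO, 954 and 1048 in parental DAC, 53 and 42 in resistant DMSO and 39 and 33 in resistant DAC. Its reads were most in parental DAC, as were those of its neighbours CMPK2 and RSAD2, and between the untreated lines it overlapped (-0.03, adjusted p = 0.79), as RSAD2 did and CMPK2 did not. BISPR, a noncoding RNA that starts 55 bases from BST2 on the other strand, rose by 1.36 in parental cells with DAC (adjusted p = 7.7e-06) and was lower in untreated DAC-resistant cells by 0.79 (adjusted p = 8.3e-05), where BST2 overlapped. Reads near the facing starts of BST2 and BISPR are uncertain too, since strand use in the counting is not stated.

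FBXO39, 567 bases from XAF1, was at 3.72 FPKM in untreated parental cells and rose by 2.40 with DAC (adjusted p = 7.4e-06), more than XAF1. Untreated DAC-resistant cells had less of it, by 1.00 (adjusted p = 0.00037, called lower), while XAF1 overlapped there. VAT1, 150 bases from IFI35, moved little with DAC in parental cells (0.15, adjusted p = 0.0057) and was higher in untreated DAC-resistant cells (0.86, adjusted p = 2.7e-06). RPL27, on the other side of IFI35, fell by 0.76 in parental cells with DAC (adjusted p = 1.3e-06). CCDC194, beside BST2, rose by 0.81 in parental cells (adjusted p = 0.0016) and, having passed the filter through the parental libraries alone, is given no test between the lines. TMPRSS2, beside MX1, had at most 1 read in any library, and FAM3B, beside MX2, had reads in parental DAC alone (75 and 31). GRASLND, beside RSAD2, missed the filter too. Its reads were 1 and 2 in parental DMSO and 86 and 88 in parental DAC. In resistant DMSO they were 214 and 149, and in resistant DAC 165 and 135. LINC02574, beside IFI6, had 5 and 0, 28 and 38, 18 and 9, and 2 and 0 in the same order. HEPACAM2, beside SAMD9L, had at most 5 reads in any library.

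The genes whose log2(FPKM + 1) followed 4 of the members most closely over the 8 libraries were taken by Pearson correlation. They were SLAMF8 (0.99993), CT45A1 (0.99978) and ENSG00000205488 (0.99973) for MX1, and PARP14 (0.99938), STAT3 (0.99907) and ALDH4A1 (0.99778) for RSAD2. For BST2 they were UNC93B1 (0.99837), MCOLN1 (0.99614) and KMT2B (0.99493), and for SAMD9 they were FAM9C (0.99907), PARP14 (0.99865) and ERVH48-1 (0.99814). CT45A1, a cancer-testis gene, was at 0.0566, 7.95, 0 and 0 FPKM in the same order of groups, and PARP14, an ISG, at 15.2, 51.9, 15.2 and 12.7. Among the 10 members the 45 pairs had correlations of 0.846 to 0.998, with a median of 0.965. These are descriptions over 8 libraries in 4 groups, and 2 libraries with one high value are enough to give such correlations.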

How the data were processed

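Human THP-1 RNA-seq, 8 libraries in 4 groups, was analysed from the deposited values. Per the paper and the labels the authors trimmed reads with cutadapt 1.9.1, aligned them to hg38 with HISAT2 2.1.0 and counted them with HTSeq 0.13.5, and they deposited FPKM multiplied by 1000 for 60664 genes and 1264 repeat families. No other columns were left out. Values were divided by 1000. The 14899 genes that reached 1 FPKM in 2 or more libraries were fitted as log2(FPKM + 1), as means of 4 groups, with trended variances (limma 3.58.1, R 4.3.3). An exact permutation test of 2 against 2 libraries cannot go below p = 0.333, so p-values are limma's. Adjustment over those genes followed Benjamini and Hochberg. Whole reads were recovered with GENCODE v44 exon lengths, within 0.01, for 88.4% of expressed genes and 9 of the 10 members. For SAMD9L a length of 7150 bases gave whole reads. These reads gave depth and a voom alternative. Replicates differed by more than sampling noise (chi-square per gene 4.01 to 4.26). The fits were tested on simulated data, but no outcome of that is given and no result here rests on it. Genes named are the 10 members, genes of fixed lists, the nearest neighbours and, for 4 members, the 3 most alike genes. Members and lists were chosen with earlier results of these data known. Alternatives were pseudocount, filter, scaling, replicate block, libraries in the fit, call rule, voom and leaving out each library. Promoter windows came from RefSeq.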

Additional observations from a re-analysis of the deposited data

Results flagged for a closer look

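The effect of DAC differed between parental and DAC-resistant cells, by limma's test of the difference itself, for 9 of the genes. MX1 differed too, but it passed the filter on low values through parental DAC alone, which fixed that difference. The difference on the log2(FPKM + 1) scale, DAC-resistant minus parental, was -5.46 for IFI6 (adjusted p = 3.6e-07), -4.19 for MX1, -3.93 for MX2, -3.75 for CMPK2 (adjusted p = 2.1e-07) and -3.49 for RSAD2. It was -2.35 for SAMD9, -2.30 for IFI35, -2.27 for SAMD9L, -1.88 for BST2 and -1.41 for XAF1 (adjusted p = 0.00012). The direction was negative in all 10 genes and under every alternative run.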

How the results depend on the processing

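Of 890 values of single genes under the alternatives, 876 kept their direction and their side of the call threshold, 4 passed it in addition, 0 lost it and 10 changed sign, all of them values that were not called in any fit. The number of genes called was 10 in parental cells with DAC, 0 in DAC-resistant cells with DAC, 10 between the lines in DAC and 10 for the difference of effects under every alternative run, each of which kept all 10 genes, MX1 included, which the filter fixed. Between the untreated lines it was 2, 3 with a pseudocount of 0.1 or after rescaling to TPM, and 4 with voom on recovered reads, which adds no FPKM and so leaves low genes larger changes. Leaving out 1 library, with the lone library left assumed to vary like the other groups, left these counts at 10, 0, 2, 10 and 10. At an adjusted p under 0.05 the 7 falls in DAC-resistant cells with DAC became 0 with only the 4 libraries compared, against 1.34% of all genes. They became 5 with no filter, against 1%, 6 with TPM, against 2.35%, and 6 with a replicate block, against 4.02%. A replicate block gave the counts of calls 10, 0, 2, 10 and 10 too, and the correlations of same-numbered libraries were -0.0218 to 0.0198, so the numbers pair nothing. Between the untreated lines upper-quartile scaling gave RSAD2 -0.0753, BST2 -0.119 and XAF1 -0.0913, and quantile normalization gave BST2 -0.0637, while upper-quartile scaling moved the median of all genes by -0.106 there, to -0.0882, and by 0.153 for DAC in parental cells, -0.261 between the lines in DAC and -0.145 for the difference of effects. Rescaling to TPM moved it by 0.109 between the lines in DAC. Leaving out 1 library gave -0.0202 to 0.0874 for RSAD2, -0.0128 to 0.0723 for BST2 and -0.0621 to 0.128 for XAF1, and in DAC-resistant cells with DAC -0.00508 to 0.0268 for MX1. The cause of these sign changes was not tested. MX1 rests on 64 to 159 reads outside parental DAC, which limits its precision there.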

Other observations

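A pair of ISGs of the list of 50, named after their values were seen, stood apart from the 10 members in untreated DAC-resistant cells. IFIT2, which binds viral RNA and slows its translation, was at 1.50, 27.2, 27.0 and 21.9 FPKM in parental DMSO, parental DAC, resistant DMSO and resistant DAC. HERC5, the ligase that attaches ISG15 to new proteins, was at 0.506, 13.6, 18.6 and 13.3 FPKM in the same order. Their untreated DAC-resistant levels were near or above the level that parental cells reached with DAC, whereas the highest share of that level among the 10 members was 37.8%, for BST2. The difference between the members and these genes was not tested.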
